A study of Homo sapiens with 6 samples.

Results

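The polyamine genes examined here are 10 of the 24878 genes in the deposited table, chosen by name: the synthesis genes ODC1, AMD1, SRM and SMS, the breakdown genes SAT1, SMOX and PAOX, the antizymes OAZ1 and OAZ2, and the antizyme inhibitor AZIN1. They were followed in poly-A RNA of MOLM-13, an established human cell line of monocytic acute myeloid leukaemia (type M5 in the labels), in 6 libraries. Cells bearing a vector for inducible knockout (KO) of CaMK2D, a calcium/calmodulin-dependent kinase, gave 2 libraries after 5 days of doxycycline and 2 after 3 days, and control cells not given doxycycline gave 2. The KO-labelled and control groups therefore differ in doxycycline and, unless the control cells carry the vector, in vector at once. The labels do not say whether the vector-bearing cells were 1 clone or a mixed population. Library titles carry the letter A for replicate 1 and B for replicate 2 in every group, and no label says what the letter marks. Separate cultures are not stated for the libraries of a group either. The p-values therefore reflect the spread among these 6 libraries alone, and that spread may be technical.

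Polyamines are small positively charged molecules that bind nucleic acids and support translation and cell growth. ODC1, ornithine decarboxylase, makes putrescine, and AMD1 makes the aminopropyl donor from S-adenosylmethionine. SRM then turns putrescine into spermidine, and SMS turns spermidine into spermine. In the other direction, SMOX oxidises spermine directly, while SAT1 acetylates spermidine and spermine for export or for oxidation by PAOX. Antizymes bind the ODC1 protein and send it to the proteasome, and AZIN1, an ODC1-like protein without the enzyme activity, binds the antizymes in its place. ODC1 is among the best known target genes of the transcription factor MYC, which binds the motif CACGTG.

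Promoter windows are shown for ODC1 and SRM because both genes were called higher in KO-labelled cells, ODC1 at both times and SRM at day 3, together with the antizyme frameshift site. The RefSeq promoter table (GRCh38.p14; 250 bases before to 50 after each start) held 10 windows for 7 of the 10 members. PAOX, SMOX and AZIN1 had no entry. The AMD1 windows chr6:110874535-110874834 and chr6:110874534-110874833 are nearly the same stretch, so the 10 windows are not all separate promoters. Another AMD1 window, chr6:110814367-110814666, lies before the AMD1 gene of GENCODE release 29, which starts at 110874770. CACGTG, which reads the same on both strands, was in 2 of these 10 windows, against 7.26% of all 35116 windows. One of the 2 is the window at the downstream ODC1 start, chr2:10447963-10448262 on the minus strand, and it holds the motif at 2 places, as 0.664% of all windows do (2 or more places). These lie on chromosome 2 at 10448036 to 10448041 and at 10448002 to 10448007, in an intron of 2 of the 4 ODC1 transcripts of GENCODE release 29 and outside the other 2. The other is the SRM window, chr1:11059969-11060268 on the minus strand, with the motif once, at 11060212 to 11060217, 199 bases before the start and outside all 6 SRM transcripts of that release. The window of the upstream ODC1 start, chr2:10448278-10448577 on the minus strand, holds none. Capitals mark CACGTG, and a match describes letters, not binding.
ODC1, downstream start: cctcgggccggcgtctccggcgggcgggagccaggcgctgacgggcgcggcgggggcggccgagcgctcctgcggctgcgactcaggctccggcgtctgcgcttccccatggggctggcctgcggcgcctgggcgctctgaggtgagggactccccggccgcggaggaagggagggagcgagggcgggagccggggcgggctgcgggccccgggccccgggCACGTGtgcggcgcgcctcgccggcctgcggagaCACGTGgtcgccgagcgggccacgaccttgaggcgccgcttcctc
ODC1, upstream start: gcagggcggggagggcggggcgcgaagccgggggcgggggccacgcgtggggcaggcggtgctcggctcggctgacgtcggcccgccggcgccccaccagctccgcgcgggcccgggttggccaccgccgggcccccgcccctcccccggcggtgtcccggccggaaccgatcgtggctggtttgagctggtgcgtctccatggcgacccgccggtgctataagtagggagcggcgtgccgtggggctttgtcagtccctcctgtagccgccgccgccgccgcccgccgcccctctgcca
SRM: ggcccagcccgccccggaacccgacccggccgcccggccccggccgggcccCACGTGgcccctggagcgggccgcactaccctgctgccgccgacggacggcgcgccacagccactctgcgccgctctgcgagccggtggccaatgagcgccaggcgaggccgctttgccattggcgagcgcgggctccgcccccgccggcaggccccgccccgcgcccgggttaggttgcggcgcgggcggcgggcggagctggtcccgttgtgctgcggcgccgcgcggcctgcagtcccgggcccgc
The GC box GGGCGG, searched on both strands, was in 9 of the 10 member windows and in 45.0% of all windows. TATAAA, searched on both strands, was in 1 member window, that of OAZ1, and in 11.5% of all windows.

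Full-length antizyme is made only when ribosomes shift reading frame at a stop codon, a step that high polyamine favours and that mRNA counts do not record. The site is shown to make that limit visible, with the last codon of the initial frame and its stop in capitals. It was found in 7 of 11 GENCODE release 29 transcripts of OAZ1 (chr19:2271425-2271460, plus strand) and in 5 of 9 of OAZ2 (chr15:64691498-64691533, minus strand). The stretches match at 34 of 36 bases.
OAZ1: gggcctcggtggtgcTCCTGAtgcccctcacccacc
OAZ2: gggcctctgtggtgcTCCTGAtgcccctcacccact

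Total counts ranged from 15456770 to 21081298 per library. Levels are given as CPM, the read count scaled to the library's size with TMM (trimmed mean of M-values) factors, and genes were tested with edgeR's quasi-likelihood test in 1 fit of the 3 groups. A gene is called where the Benjamini-Hochberg adjusted p over the 14601 tested genes is under 0.05. The targeted gene, CAMK2D, stood at 29 and 28.1 CPM at KO day 5, 14.7 and 15.6 CPM at KO day 3, and 23.0 and 14.5 CPM in the controls, and was not called against control at day 5 (edgeR adjusted p = 0.118) or day 3 (0.437). A knockout need not lower the mRNA of its target, and since these levels give no check of the labels, the libraries are called KO-labelled. Of 10 myeloid markers, 9 were at 1 CPM or more in every library, and CD68 was at 0 in 5 of the 6. The myeloid markers summed to 1220.3 and 1537 CPM at KO day 5, 1154 and 1298 CPM at KO day 3, and 2860.3 and 3514 CPM in the controls. Most of that difference lay in MPO, at 6.85 and 15.6 CPM at KO day 5, 16.5 and 27.7 CPM at KO day 3, and 662 and 1219.9 CPM in the controls, and in FLT3, at 241 and 269 CPM at KO day 5, 341 and 328 CPM at KO day 3, and 1063 and 876 CPM in the controls. CSF1R had 1.53 and 5.35 CPM at KO day 5 and 1.36 and 6.82 CPM at KO day 3. Its controls had 30.9 and 41.0 CPM. SPI1 and ITGAM also lay below both controls in every KO-labelled library, by a smaller factor. CEBPA had 448 and 469 CPM at KO day 5 against 315 and 343 CPM in the controls, and overlapped them at day 3. CD33, PTPRC and LYZ overlapped between the groups, and LYZ differed widely within each group. Of the B cell markers, 3 of 4 were in the table, and their sum was 20.4 to 35.6 CPM over the 6 libraries, nearly all from PAX5. Of the epithelial or stromal markers, 2 of 6 were in the table, and they summed to 40.7 and 43.3 CPM at KO day 5, 41.7 and 44.5 CPM at KO day 3, and 217 and 134 CPM in the controls, nearly all from PECAM1, which myeloid cells also express. The erythroid markers, 1 of 4 in the table, summed to at most 0.257 CPM. Mitochondrial genes held 1.08% and 1.14% of counts at KO day 5, 0.868% and 0.929% at KO day 3, and 3.05% and 2.52% in the controls. The MPO, FLT3, CSF1R, SPI1, ITGAM, PECAM1 and mitochondrial values move with the KO label, and their part in the results below was not tested. In bulk RNA, fewer cells of a kind and less RNA per cell cannot be told apart.

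The 10 members span a wide range of levels. On the deposited FPKM scale, which divides by gene length, the order of control means was OAZ1 (343 ± 31.3), SRM (87.9 ± 19.5), AZIN1 (45.7 ± 7.02), ODC1 (37.4 ± 6.40), AMD1 (29.3 ± 1.13), SMS (29.3 ± 4.69), SAT1 (7.34 ± 2.10), OAZ2 (6.99 ± 1.69), SMOX (4.72 ± 2.07) and PAOX (0.182 ± 0.0964), each with SD and n = 2. Across the 2 control libraries, the ranges of AZIN1 and ODC1 overlapped, as did those of AMD1 and SMS, SAT1 and OAZ2, and OAZ2 and SMOX. Within each control library AZIN1 was above ODC1, SAT1 above OAZ2 and OAZ2 above SMOX. SAT1 and OAZ2 were close in control replicate 1 (5.85 and 5.79 FPKM). AMD1 and SMS changed order between the controls, so they are not ordered. In KO-labelled cells ODC1 moved past AZIN1, with 88.0 and 64.8 FPKM at KO day 5 and 100.4 and 90.2 FPKM at KO day 3 against at most 47.9 FPKM for AZIN1 in those 4 libraries. By mean FPKM over all libraries OAZ1 ranked 107 and PAOX 13597 among the 14601 tested genes.

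**Figure D1:**
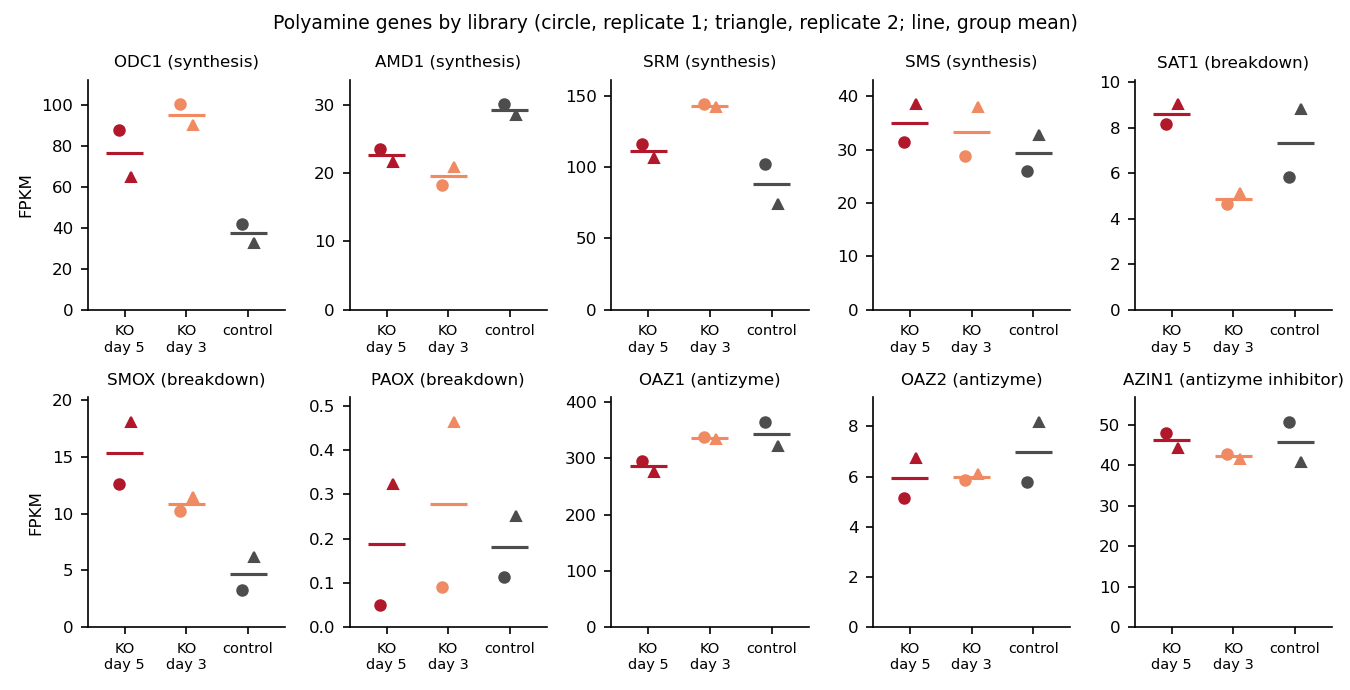
Deposited FPKM (linear axes from 0, scale set per gene) of the 10 polyamine genes in each library, for KO day 5, KO day 3 and control; circles are replicate 1, triangles replicate 2 and lines group means. ODC1 and SMOX lie higher in all 4 KO-labelled libraries than in either control, AMD1 lies lower, and the PAOX libraries are scattered in every group.

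ODC1, the rate-limiting enzyme of polyamine synthesis (chromosome 2, 10439968 to 10448504, minus strand; GRCh38 positions here and below), was higher in KO-labelled cells at both times. It stood at 258 and 185 CPM at KO day 5, 302 and 278 CPM at KO day 3, and 123 and 98.5 CPM in the controls. All 4 KO-labelled libraries were above both controls, and the KO day 3 libraries were the highest. In edgeR the day 5 log2 fold change was 1.0, with an SE of 0.18 and an adjusted p of 0.0132, and the day 3 value was 1.39, with an SE of 0.18 and an adjusted p of 0.00525. The day 3 call held in 15 of 16 alternative settings and was lost with limma on log2(FPKM + 1) without a filter (adjusted p = 0.0564, range over settings 4.42e-18 to 0.0564). The day 5 call held in 13 of 16 (8.51e-09 to 0.0715) and was lost in that limma setting (0.0715) and when edgeR was run without control replicate 2 (adjusted p = 0.0532) or without KO day 5 replicate 1 (adjusted p = 0.0575).

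SRM, spermidine synthase (chromosome 1, 11054584 to 11060024, minus strand), rose at day 3. It stood at 217 and 194 CPM at KO day 5, 278 and 281 CPM at KO day 3, and 192 and 142 CPM in the controls. The KO day 3 libraries lay close together above both controls, while KO day 5 replicate 2 lay just above control replicate 1. At day 5 the log2 fold change was 0.30 (95% interval -0.06 to 0.66, edgeR adjusted p = 0.23) and was not called in the reported fit. It was 0.53 without control replicate 1 and 0.07 without control replicate 2. The day 3 log2 fold change was 0.75, with an SE of 0.16 and an edgeR adjusted p of 0.0232. This call ended with either KO day 3 library left out, at an edgeR adjusted p of 0.11 without replicate 1 and 0.114 without replicate 2, where the library left alone is taken to vary as the other groups do. It also ended with limma on log2(FPKM + 1) without a filter (adjusted p = 0.115), and over all settings the adjusted p ran between 1.38e-05 and 0.115.

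AMD1, S-adenosylmethionine decarboxylase (chromosome 6, 110874770 to 110895713, plus strand), went the other way from ODC1 and SRM. It stood at 164 and 147 CPM at KO day 5, 129.8 and 153 CPM at KO day 3, and 209.7 and 202 CPM in the controls. All 4 KO-labelled libraries were below both controls. AMD1 fell at day 3, where the log2 fold change was -0.54 with an SE of 0.13 and an edgeR adjusted p of 0.0338. The day 5 value of -0.41 (95% interval -0.71 to -0.11, edgeR adjusted p = 0.071) missed the threshold. It passed with DESeq2 (adjusted p = 0.0247), and in edgeR without the low-count filter (0.0213) or with a replicate block (0.0153). With the 5 CPM filter it was also called lower, at an edgeR adjusted p that rounds to 0.05. In the other settings AMD1 was not called at day 5. Leaving out control replicate 1 ended the day 3 call (edgeR adjusted p = 0.0768), as did leaving out KO day 3 replicate 1 (0.28) or replicate 2 (0.121) and unfiltered limma on log2(FPKM + 1) (adjusted p = 0.0909), and the range over settings was 0.00239 to 0.28. With ODC1 higher and AMD1 lower, the FPKM ratio of ODC1 to AMD1 was 3.73 and 2.99 at KO day 5, 5.52 and 4.32 at KO day 3, and 1.39 and 1.15 in the controls.

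SMS, spermine synthase (chromosome X, 21940573 to 21994835, plus strand), was not called. It stood at 66.8 and 80.1 CPM at KO day 5, 63.1 and 85.1 CPM at KO day 3, and 55.8 and 71.3 CPM in the controls, and the groups overlapped. The 95% intervals of its log2 fold change were -0.24 to 0.65 at day 5 and -0.22 to 0.66 at day 3. The ODC1 estimates of 1.0 at day 5 and 1.39 at day 3 lie outside both intervals. The ODC1 95% interval overlaps that of SMS at day 5 (0.57 to 1.42) but not at day 3 (0.96 to 1.82).

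SMOX, the spermine oxidase (chromosome 20, 4120980 to 4187747, plus strand), rose at both times, by a larger factor than any other called member at day 5. It stood at 36.6 and 51.2 CPM at KO day 5, 30.5 and 35.2 CPM at KO day 3, and 9.51 and 18.4 CPM in the controls. All 4 KO-labelled libraries were above both controls, although the controls differed widely from each other. In edgeR the log2 fold change at day 5 was 1.65, with an SE of 0.32 and an adjusted p of 0.0179, and that at day 3 was 1.23, with an SE of 0.32 and an adjusted p of 0.049. The day 5 call held in 14 of 16 settings and ended when KO day 5 replicate 2 was left out (edgeR adjusted p = 0.0828) and in unfiltered limma on log2(FPKM + 1), with 0.0697. Its range over settings was 3.81e-13 to 0.0828. The day 3 call held in 6 of 16 settings (range 6.31e-08 to 0.183). It was lost with any 1 library other than control replicate 2 left out, with the 5 CPM filter (edgeR adjusted p = 0.0553), with only the 2 groups fitted (edgeR adjusted p = 0.0623) and in the 3 limma fits (0.0587 to 0.147). The log2 fold change was 0.84 without control replicate 1 and 1.8 without control replicate 2.

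SAT1, the acetyltransferase of polyamine export and breakdown (chromosome X, 23783173 to 23786226, plus strand), was not called against control in the reported fit. It stood at 20 and 21.7 CPM at KO day 5, 11.7 and 13.3 CPM at KO day 3, and 14.5 and 22.3 CPM in the controls. The KO day 3 libraries were the lowest, and the KO day 5 libraries lay between the controls. The log2 fold change was 0.18 (95% interval -0.37 to 0.73, edgeR adjusted p = 0.659) at day 5 and -0.56 (95% interval -1.11 to -0.01, edgeR adjusted p = 0.168) at day 3. With a replicate block the day 3 fall was called (-0.54, edgeR adjusted p = 0.0471). With SMOX higher, the FPKM ratio of SMOX to SAT1 was 1.55 and 2.0 at KO day 5, 2.21 and 2.25 at KO day 3, and 0.555 and 0.7 in the controls. PAOX, the acetylpolyamine oxidase (chromosome 10, 133379234 to 133391694, plus strand), had 2 and 13 counts at KO day 5, 4 and 20 at KO day 3, and 4 and 12 in the controls. Replicate 2 had more PAOX counts than replicate 1 in every group. The 95% intervals of PAOX, -2.76 to 2.69 at day 5 and -2.06 to 3.29 at day 3, hold changes as large as those of SMOX. A difference was therefore not detectable with these low and uneven counts.

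None of the 3 genes that control ODC1 protein was called at either time. OAZ1 (chromosome 19, 2269509 to 2273490, plus strand) stood at 1001 and 915 CPM at KO day 5, 1177 and 1198 CPM at KO day 3, and 1245 and 1114 CPM in the controls. Its KO day 5 libraries were below the other 4, with a log2 fold change of -0.30 (95% interval -0.58 to -0.02, edgeR adjusted p = 0.134). At day 3 the groups overlapped, at 0.01 (95% interval -0.27 to 0.29, edgeR adjusted p = 0.969), and that value took either sign over the settings (-0.06 to 0.1). OAZ2 (chromosome 15, 64687573 to 64703281, minus strand) stood at 38.9 and 49.9 CPM at KO day 5, 45.8 and 48.8 CPM at KO day 3, and 44.1 and 63.5 CPM in the controls, with overlap at both times. AZIN1 (chromosome 8, 102826357 to 102893864, minus strand) stood at 303 and 274 CPM at KO day 5, 279 and 277 CPM at KO day 3, and 323 and 265 CPM in the controls. Its log2 fold changes of -0.03 (95% interval -0.33 to 0.28) and -0.08 (95% interval -0.39 to 0.23) turned sign with the setting. The FPKM ratio of ODC1 to OAZ1 was 0.298 and 0.234 at KO day 5, 0.298 and 0.269 at KO day 3, and 0.115 and 0.102 in the controls. OAZ1 and OAZ2 kept a ratio of 57.5 and 41.0 at KO day 5, 57.4 and 54.8 at KO day 3, and 63.0 and 39.2 in the controls, so the control libraries spanned the others.

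**Figure D2:**
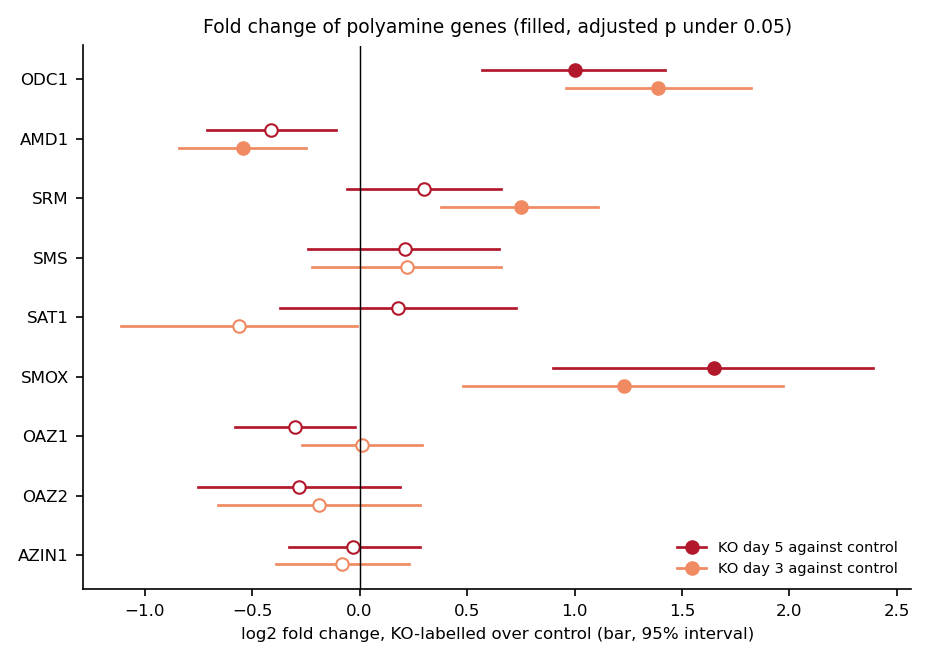
Log2 fold change of KO-labelled over control libraries (x axis) for 9 members, with KO day 5 above KO day 3 for each gene; bars are 95% intervals of the edgeR fit and filled points have an adjusted p under 0.05. ODC1 and SMOX are filled at both times, SRM and AMD1 at day 3, and PAOX is left out because its intervals span more than 5 log2 units.

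Counted together, 2 of the 10 members were called at day 5, both higher, against 14.5% of all tested genes called in either direction, 7.44% called higher and 7.05% called lower. At day 3, 4 members were called, 3 higher and 1 lower, against 11.7% of all tested genes, 5.72% higher and 5.99% lower. At an unadjusted p under 0.05 the members numbered 4 at day 5, beside 30.8% of tested genes, and 5 at day 3, beside 28.9%. Both KO day 5 libraries were above both controls for ODC1, SRM and SMOX and below them for AMD1 and OAZ1, which is 5 members, beside 58.1% of tested genes, 29.6% higher and 28.4% lower. At KO day 3 they were above for ODC1, SRM and SMOX and below for AMD1 and SAT1, again 5 members, beside 60.4% of tested genes, 30.3% higher and 30.1% lower. The median log2 fold change of the members was 0.08 at day 5 and 0.12 at day 3, and the median absolute value 0.29 and 0.55, beside 0.41 and 0.39 over all tested genes. The members were chosen with earlier results of these data known, so these counts are a description. The comparisons of days 5 and 3 share their control libraries. At day 3 the count of 4 was 2 without control replicate 1 and 1 without KO day 3 replicate 1 or 2. At day 5 the count of 2 was 1 without control replicate 2 or either KO day 5 library.

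Between the days no member was called in the reported fit, which has no replicate block. In KO day 5 against KO day 3, 0 of 10 members passed the edgeR threshold, 3 had an unadjusted p under 0.05 (15.1% of all tested genes did), and 0.0274% of all tested genes were called. DESeq2 and limma also called 0 members, while edgeR without the low-count filter called 1, SRM (adjusted p = 0.0399, range over settings 0.0326 to 0.777). With a replicate block, edgeR called SAT1 (adjusted p = 0.0271), SRM (0.0326) and ODC1 (0.0408). The labels do not say what shared replicate numbers mark. In the reported fit, the 3 members under the unadjusted threshold were SAT1 (log2 fold change 0.74, 95% interval 0.19 to 1.29, edgeR adjusted p = 0.244), SRM (-0.44, -0.80 to -0.08, edgeR adjusted p = 0.264) and OAZ1 (-0.31, -0.59 to -0.03, edgeR adjusted p = 0.292). ODC1 had a value of -0.39 (95% interval -0.81 to 0.03, edgeR adjusted p = 0.352) and SMOX 0.42 (95% interval -0.30 to 1.14, edgeR adjusted p = 0.569). The KO day 5 libraries were both below both KO day 3 libraries for ODC1, SRM and OAZ1, and both above them for SAT1 and SMOX. Such separation was found in 49.2% of all tested genes, 25.5% higher and 23.8% lower. In the reported fit, a call made at 1 of the days is not shown to differ between them.

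MYC is given beside its known target. It stood at 509.9 and 545 CPM at KO day 5, 891 and 1112 CPM at KO day 3, and 614 and 603 CPM in the controls. The KO day 3 libraries were above both controls and the KO day 5 libraries below both. MYC rose at day 3, where the log2 fold change was 0.72 with an SE of 0.14 and an edgeR adjusted p of 0.0169. Leaving out KO day 3 replicate 2 ended that call (edgeR adjusted p = 0.15, range over settings 1.59e-05 to 0.15), as did unfiltered limma on log2(FPKM + 1) (adjusted p = 0.0852). At day 5 it was -0.21 (95% interval -0.52 to 0.11, edgeR adjusted p = 0.345). Relative to the control mean, ODC1 in the KO day 5 libraries was higher by 1.21 and 0.74 on the log2 scale, SRM by 0.38 and 0.22, and MYC had values of -0.26 and -0.16. In the KO day 3 libraries the values were 1.45 and 1.33 for ODC1, 0.74 and 0.75 for SRM, and 0.55 and 0.87 for MYC. At KO day 5, ODC1 was above the controls in both libraries while MYC was below them in both, a MYC difference that was not called. Whether MYC had a part in the ODC1 and SRM levels was not tested. The FPKM ratio of ODC1 to MYC was 0.511 and 0.344 at KO day 5, 0.343 and 0.253 at KO day 3, and 0.203 and 0.165 in the controls.

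**Figure D3:**
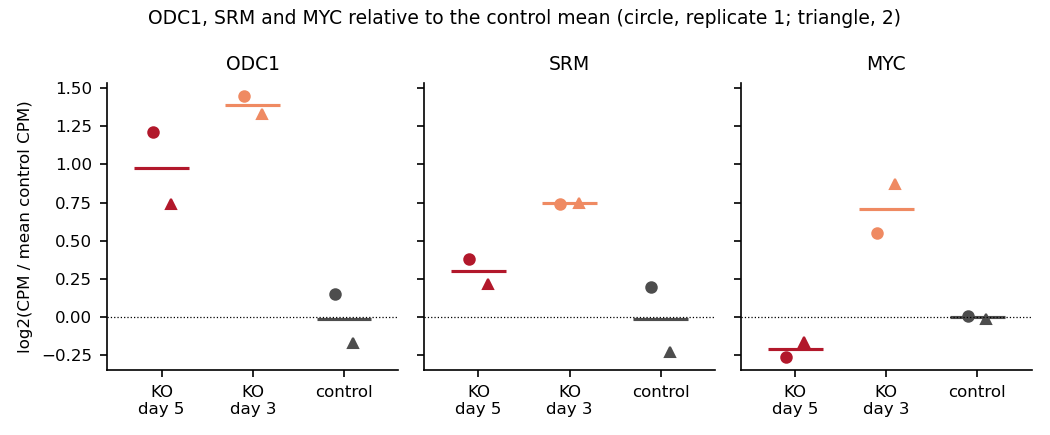
Log2 of CPM over the mean control CPM (shared y axis) for ODC1, SRM and MYC in each library of KO day 5, KO day 3 and control; circles are replicate 1, triangles replicate 2, lines group means and the dotted line the control mean. At KO day 5 the ODC1 libraries sit at 1.21 and 0.74 while the MYC libraries sit at -0.26 and -0.16, a MYC difference that was not called.

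A wider list of 26 genes around the pathway held genes of hypusine formation (a spermidine-derived change to the translation factor EIF5A), substrate supply, methionine salvage, transport and paralogues, and 21 of them were tested. At day 5, 2 rose and 2 fell (19.0% of those tested, beside 14.5% of all genes), and at day 3, 2 rose and 1 fell (14.3%, beside 11.7%), so these shares were near the background. SLC3A2, the heavy chain of amino acid transporters that has also been linked to polyamine export, rose at both times. It stood at 685 and 639 CPM at KO day 5, 805 and 829 CPM at KO day 3, and 481 and 446 CPM in the controls. Its log2 fold change was 0.51 at day 5 (edgeR adjusted p = 0.0247) and 0.82 at day 3 (edgeR adjusted p = 0.00621). ATP13A2, a lysosomal polyamine exporter, fell at both times, with 55.3 and 57.8 CPM at KO day 5, 49.8 and 46.1 CPM at KO day 3, and 83.5 and 74.3 CPM in the controls. The log2 fold change was -0.48 for day 5 (edgeR adjusted p = 0.0468) and -0.72 for day 3 (edgeR adjusted p = 0.015).

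The other called genes of this list were each called at 1 time. MAT2A, the methionine adenosyltransferase that makes the substrate of AMD1, fell at day 5, with 289.8 and 279.7 CPM at KO day 5 against 547 and 403 CPM in the controls (log2 fold change -0.74, edgeR adjusted p = 0.0211). APIP and ENOPH1, enzymes of methionine salvage, recycle the by-product of SRM and SMS. APIP rose at day 5, with 9.45 and 12.9 CPM at KO day 5 against 5.59 and 5.32 CPM in the controls (log2 fold change 1.04, edgeR adjusted p = 0.0405). ENOPH1 rose at day 3, with 69.6 and 68.1 CPM at KO day 3 against 46.8 and 40.8 CPM in the controls (log2 fold change 0.65, edgeR adjusted p = 0.0412). Leaving out 1 library ended the call in each of the SLC3A2, ATP13A2, MAT2A, APIP and ENOPH1 results. At day 5 the highest edgeR adjusted p with 1 library left out was 0.116 for SLC3A2 and 0.162 for ATP13A2 (without KO day 5 replicate 1), and 0.196 for APIP and 0.101 for MAT2A (without KO day 5 replicate 2). At day 3 it was 0.186 for ENOPH1 (without KO day 3 replicate 1), and 0.0623 for SLC3A2 and 0.142 for ATP13A2 (without KO day 3 replicate 2). The day 5 calls of APIP, ATP13A2, SLC3A2 and MAT2A held in 6, 7, 10 and 13 of 16 settings. The day 3 calls of ENOPH1, ATP13A2 and SLC3A2 held in 9, 13 and 14. At day 5, APIP and ATP13A2 also ended with only the 2 groups fitted (edgeR adjusted p = 0.0795 for APIP and 0.0838 for ATP13A2) and in every limma fit. APIP ended with each of the 6 libraries left out. SLC3A2 at day 5 also ended with only the 2 groups fitted (edgeR adjusted p = 0.0777). ENOPH1 at day 3 ended in every limma fit (adjusted p 0.0581 to 0.139). EIF5A itself was uneven, at 364 and 494 CPM at KO day 5, 479.5 and 737 CPM at KO day 3, and 215 and 495 CPM in the controls, and was not called.

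The genes whose pattern over the 6 libraries lay closest to that of ODC1 were TNFRSF21, EIF2AK3 and THYN1. The measure was the root-mean-square difference of centred log2 CPM, which was 0.089, 0.1 and 0.13, among 9692 protein-coding genes at a mean of 5 CPM or more. TNFRSF21, a death receptor, stood at 22.3 and 15.8 CPM at KO day 5, 29.5 and 24.8 CPM at KO day 3, and 9.7 and 8.29 CPM in the controls. EIF2AK3, the PERK kinase of the endoplasmic reticulum, stood at 16.9 and 14.0 CPM at KO day 5, 19.0 and 17.5 CPM at KO day 3, and 8.61 and 7.0 CPM in the controls. For SAT1 the closest were ZSWIM4, ARAP2 and NEIL1, at 0.078, 0.11 and 0.11.

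The effect of each setting on the 6 calls made against control differed by gene. The fold changes kept their sign in all 16 alternatives for each call. ODC1 at day 3 ranged from 1.24 to 1.56 on the log2 scale and AMD1 at day 3 from -0.65 to -0.42. SRM at day 3 ranged from 0.55 to 0.98, and SMOX at day 5 from 1.25 to 2.18, with both ends of each set by leaving out 1 of the 2 controls.

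**Figure D4:**
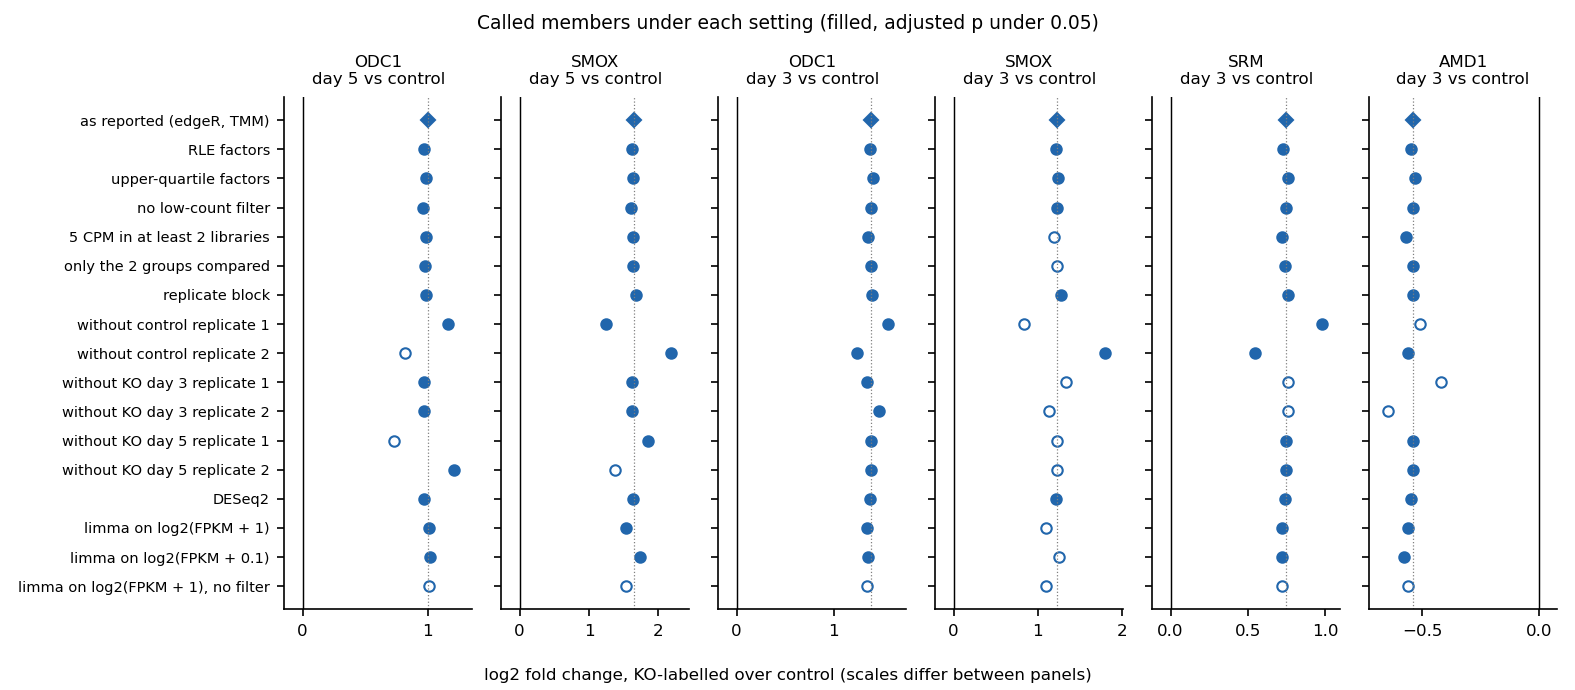
Log2 fold change of KO-labelled over control libraries (x axis, scale set per panel) for the 6 member calls under the reported fit (diamond) and 16 alternatives (circles); filled points have an adjusted p under 0.05. ODC1 at day 3 is open in 1 alternative and SMOX at day 3 in 10, and no point crosses 0.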

How the data were processed

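Per the file headers, the authors deposited 1 table with a raw read count and an FPKM value for every gene and library. The submitters' processing notes name HISAT2, HTSeq 0.11.2, DESeq2 1.26.0 and GRCh38 but give them no role. How reads were counted, and on which annotation, is not given in the sources used here. Lengths implied by the deposited FPKM matched GENCODE release 29 exon lengths within 0.5 bases for 99.7% of genes, so coordinates come from that release. Strand is not stated to be kept by the kit, and without it a gene's reads and those of an antisense partner cannot be told apart.

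Tests on the deposited counts used edgeR 4.0.16 (R 4.3.3): filterByExpr (minimum count 10, minimum total 15), TMM factors (0.962 to 1.04), and the robust quasi-likelihood test in 1 fit of 3 groups without a block. Fold changes carry a prior count of 0.125. An SE is the size of the log2 fold change divided by the root of its F statistic. All 10 members passed the filter. A count of 0 allows up to 0.194 CPM (3 counts, shallowest library, counting error only). The 16 alternatives changed the scaling (RLE, upper quartile), the filter (none, or 5 CPM in 2 libraries), the samples (the 2 groups compared only, or 1 library left out in turn), the model (a replicate block) or the tool. The tools were DESeq2 1.42.0 and limma 3.58.1, the second on the deposited FPKM as log2(FPKM + 1), filtered at a mean FPKM of 0.5 or unfiltered, and as log2(FPKM + 0.1), filtered. Replicates differed beyond sampling noise (chi-square over degrees of freedom 23.3 at KO day 5, 17.4 at KO day 3 and 37.7 in the controls, over genes with 20 or more counts in the pair).

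The members, the wider list and the tests were chosen with earlier results of these data known. All members are named, and from the wider list up to 3 called genes in each direction per comparison against control, by smallest adjusted p. The nearest patterns are the 3 protein-coding genes with the smallest root-mean-square difference.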

Additional observations from a re-analysis of the deposited data

How the results depend on the processing

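Of the 6 member calls, the fold change kept its direction in all 16 alternatives, and the settings that ended a call are given with each gene. Over all tested genes the calls were 2117 at day 5, 1710 at day 3 and 4 between the days. Without the low-count filter they were 3234, 2925 and 599. Fitting only the 2 groups compared gave 1315 at day 5. DESeq2 gave 2591 at day 3 and 439 between the days. Unfiltered limma on log2(FPKM + 1) called 605 at day 5 and 254 at day 3 and none of the members at either (0), and between the days limma called 1 with its filter, 0 without it and 0 on log2(FPKM + 0.1). Between the days 1 member was called without the low-count filter.

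The labels do not say what shared replicate numbers mark, and there are 2 pairs a comparison. Deviations of same-numbered libraries correlated at 0.303 to 0.355, and 7 of the 10 members kept 1 replicate order in all 3 groups, beside 40.5% of tested genes. With the replicate block the calls were 4418 at day 5, 4064 at day 3 and 1117 between the days, and the members called were 3, 5 and 3. The block added AMD1 at day 5 (edgeR adjusted p = 0.0153) and SAT1 at day 3 (0.0471). The 3 between the days were SAT1 (adjusted p = 0.0271), SRM (0.0326) and ODC1 (0.0408), which the fit without the block did not call.

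Leaving out 1 library gave 723 to 1874 calls at day 5, 282 to 1906 at day 3 and 1 to 15 between the days, and 1 to 3, 1 to 4 and 0 to 0 members. Values near 0 changed sign. At day 3, OAZ1 was -0.02 with the 5 CPM filter and in each limma fit, and at day 5 AZIN1 was 0.02 in each limma fit. Between the days SMS was 0.01 with the 5 CPM filter and 0.07 in each limma fit. With 1 library left out, the day 5 ranges were -0.1 to 0.5 for SAT1, -1.84 to 0.72 for PAOX and -0.19 to 0.12 for AZIN1. The day 3 ranges were -0.97 to 1.38 for PAOX, -0.06 to 0.1 for OAZ1, -0.42 to 0.11 for OAZ2, -0.21 to 0.08 for AZIN1, -0.59 to 0.07 for CAMK2D and -0.3 to 0.13 for MAT2A. Between the days they were -0.01 to 0.21 for AMD1, -0.25 to 0.17 for SMS, -2.46 to 0.91 for PAOX, -0.29 to 0.06 for OAZ2, -0.04 to 0.12 for AZIN1 and -0.37 to 0.04 for ENOPH1. The cause was not tested. With 2 libraries a group, small changes of PAOX, with its low and uneven counts, are not detectable.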

Other observations

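By GENCODE release 29, ODC1, AMD1, SRM, SMS, SAT1 and SMOX share no exonic base with another gene. OAZ1 shares 236 exonic bases with JSRP1 on the opposite strand, which had 0 to 5 counts per library, and 220 with AC005258.1 on its own strand. AZIN1 shares 344 with its antisense gene AZIN1-AS1, which had 26 to 62 counts. OAZ2 shares 554 with the antisense gene AC100830.3, and PAOX 158 with AL360181.3. AC005258.1, AC100830.3 and AL360181.3 were not analysed here. Of the members' named pseudogenes, AMD1P3 was in the table, with at most 3 counts.

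ARG2, an arginase that makes ornithine for ODC1, was picked after its values were seen. It had 2 and 0 counts at KO day 5, 0 and 2 at KO day 3, and 24 and 24 in the controls. It was not called (edgeR adjusted p = 0.0645 at day 5 and 0.0712 at day 3). AHCY, which clears the S-adenosylhomocysteine left by methylation, was picked likewise, at 182 and 118 CPM at KO day 5 and 262 and 229.5 CPM in the controls, with an edgeR adjusted p of 0.0511 at day 5.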
